A study of Mus musculus with 59 samples.

Results

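The RNA levels of 10 genes of autophagy and mitophagy were followed in brown adipose tissue (BAT) of 59 male C57BL/6J mice aged 8 to 12 weeks, in which cDNA libraries of total RNA had been sequenced and reads had been counted per gene. The 10 genes were chosen by name (Ulk1, Becn1, Atg7, Map1lc3a, Map1lc3b, Gabarapl1, Sqstm1, Bnip3, Pink1 and Tfeb), and all 10 were found among the 55341 genes that each of the 3 count tables lists. In the hormone experiment, 20 wild-type (WT) and 10 BATKO mice were made hypothyroid with propylthiouracil (PTU) in the food. WT mice received no hormone (4 mice) or were taken 3, 6, 12 or 24 h after an injection of thyroid hormone (TH, T3 with T4; 4 mice at each time), and BATKO mice received no hormone (5 mice) or were taken 24 h after the injection (5 mice). In the temperature experiment, control (CTRL) mice were kept at 4 °C (3 mice) or 30 °C (4 mice) and BATKO mice at 4 °C (4 mice) or 30 °C (5 mice), with 24 h given for the cold exposure. In the diet experiment, 4 CTRL and 3 BATKO mice were fed a high-fat diet (HFD) and 4 CTRL and 2 BATKO mice chow, with 3.5 days given for the diet. What was changed genetically in BATKO mice is not given in the sources used here, so no deleted gene could be checked. Each library was labelled as 1 mouse, and nothing was stated on litters or days of sampling.

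Autophagy delivers cell content to the lysosome in a double-membrane vesicle, the autophagosome, which grows from a cup called the phagophore. Small ubiquitin-like ATG8 proteins (LC3 and GABARAP) are attached to a lipid of that membrane and capture cargo through receptors, and mitophagy is the same route applied to mitochondria. Brown adipocytes burn fuel for heat in abundant mitochondria, thyroid hormone and cold both stimulate this thermogenesis, and mitophagy takes part in the loss of brown fat mitochondria when the need for heat ends. RNA counts measure neither the proteins nor the flow of cargo to the lysosome.

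The members are protein-coding genes on 8 chromosomes of GRCm38. The genes that act first are Ulk1 (chr5:110784488-110810097, minus strand), a kinase that starts the phagophore, and Becn1 (chr11:101285952-101302286, minus strand), which encodes Beclin 1 of the class III phosphoinositide 3-kinase (PI3K) complex. Atg7 (chr6:114643097-114860614, plus strand) encodes the enzyme that activates ATG8 proteins and ATG12 for conjugation. The ATG8 proteins LC3A, LC3B and GABARAPL1 come from Map1lc3a (chr2:155276297-155278073), Map1lc3b (chr8:121590361-121598760) and Gabarapl1 (chr6:129533160-129542346), all on the plus strand. Sqstm1 (chr11:50199366-50210827, minus strand) encodes p62, a receptor of ubiquitinated cargo. Bnip3 (chr7:138890836-138909519, minus strand) is a mitophagy receptor of the outer mitochondrial membrane, and Pink1 (chr4:138313409-138326307, minus strand) is a kinase that builds up on damaged mitochondria and marks them for removal. Tfeb (chr17:47737030-47792419, plus strand) is a transcription factor of lysosomal and autophagy genes that binds E-box elements.

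The E-box letters CACGTG were searched on both strands of RefSeq promoters of GRCm38.p6, from 250 bases before to 50 after each start site. They occur in 7.15% of 32817 promoters. Of the 8 members with a promoter in the table (10 promoters, of which 3 belong to Tfeb), Atg7 and Bnip3 hold them. Their surroundings are shown because these promoters are the only ones of the members with the letters, with CACGTG in capitals. The first lies at chr6:114670934-114670999 on the plus strand, inside the annotated gene since the RefSeq start is internal to it, and the second at chr7:138909579-138909644 on the minus strand.
Atg7: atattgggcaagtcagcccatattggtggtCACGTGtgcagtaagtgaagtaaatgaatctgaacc
Bnip3: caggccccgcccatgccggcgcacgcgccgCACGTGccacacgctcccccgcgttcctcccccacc
The longer E-box, with a T before and an A after these letters, occurs in 0.98% of promoters and in none of the member promoters. An exact direct repeat of AGGTCA with 4 bases between the copies (DR4), the element of thyroid hormone receptors, occurs in 0.02% of promoters and in none of the member promoters. At that share, finding none among 10 promoters was nearly certain. Elements with other letters or outside this short window were not searched, so the result cannot tell whether these genes have one. A match of letters is a description and says nothing of binding.

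Total counts per mouse were 7805938 to 14615534 in WT and 13593987 to 18073627 in BATKO mice of the hormone experiment, 8008348 to 12887313 in the temperature experiment and 7612059 to 11533900 in the diet experiment. The members held from 16 counts (Tfeb in 2 chow-fed mice) to 3202, and no member was at 0 in any mouse. Levels are given below as normalized counts, scaled by the TMM method within each experiment, so they are not comparable between experiments. Skeletal muscle RNA was uneven between mice: the sum of 9 muscle markers ran from 27.1 to 88120 normalized counts and exceeded 20000 in 5 libraries (CTRL 20 and 21 and BATKO 13 and 17 at 30 °C, and WT mouse B12 at 6 h). All 8 brown adipocyte markers were above 0 in every mouse, with sums between 26340 and 251100. The other marker sums were 3062 to 8400 for 5 endothelial, 1507 to 18340 for 4 erythroid, 453.6 to 1250 for 3 Schwann cell, 259 to 1983 for 5 macrophage and 16.0 to 136.9 for 4 lymphocyte markers. A marker was at 0 in 13 libraries for muscle, 26 for lymphocytes and 5 for erythroid cells, and in none for the other lists. In such bulk tissue, fewer cells of a type and less RNA per cell cannot be told apart.

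Per kilobase of exons, Map1lc3a was the most abundant member in hypothyroid WT mice, at 1092 ± 63.2 normalized counts per kb (SD, n = 4). Gabarapl1, at 351 ± 30.2, and Bnip3, at 345 ± 60.9 normalized counts per kb, came next and did not differ beyond their spread. Pink1 (262 ± 27.9), Sqstm1 (206 ± 27.8) and Map1lc3b (121 ± 14.3 normalized counts per kb) followed. The exons of all annotated transcripts of a gene were joined, 7.52 kb for Map1lc3b, so the order depends on the annotation. Undivided, Map1lc3b averaged 908.6 normalized counts, above Bnip3 (782) and Gabarapl1 (706.9), with Map1lc3a still highest (1290). Becn1 (35.6 ± 1.57), Ulk1 (28.8 ± 6.82) and Atg7 (20.9 ± 2.08 normalized counts per kb) were lower, and Tfeb, the only transcription factor of the set, was lowest at 5.12 ± 1.02 normalized counts per kb. Map1lc3a was also first and Tfeb last in CTRL mice at 30 °C (1637 ± 255 and 5.32 ± 1.03) and on chow (978 ± 203 and 4.08 ± 0.997 normalized counts per kb). Hypothyroid BATKO mice had another order, with Bnip3 (657 ± 284) and Pink1 (551 ± 41.8) ahead of Map1lc3a (402 ± 42.9 normalized counts per kb, n = 5). Mice of a group were most alike for Becn1, with a median coefficient of variation of 6.9% over the 15 groups, and least alike for Bnip3, with 21.9%.

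Exons of some members overlap exons of other genes, and the strand setting of the counting was not given, so part of their counts may belong to the partner. On the opposite strand, Cntd1 covers 43.93% of the exon bases of Becn1, 1700101I11Rik covers 28.32% of Gabarapl1, Gm45507 covers 22.25% of Bnip3, Mrnip covers 17.28% of Sqstm1 and Zcchc14 covers 0.77% of Map1lc3b. Pink1 shares 2.58% and 4.12% of its exon bases with the miRNA genes Mir7019 and Gm27646 on the same strand.

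The time course asked how these genes respond to TH in hypothyroid WT mice. Tfeb was higher at 3, 12 and 24 h and Ulk1 at 12 and 24 h, whereas Atg7 and Bnip3 were lower at 24 h. The other 6 members passed the test at no time. With edgeR's quasi-likelihood test and Benjamini-Hochberg adjustment over the 13003 genes tested, 1 of the 10 members was called at 3 h (Tfeb, higher), beside 5.1% of all genes higher and 4.09% lower. None was called at 6 h, where 12.1% of genes were higher and 10.9% lower. Both calls at 12 h were increases, beside 13.6% of genes higher and 12.1% lower, and at 24 h 2 members were higher and 2 lower, beside 17.2% and 15.5% of genes. At 6 h, 1 member (Gabarapl1) had an unadjusted p under 0.05, and DESeq2 called 1.

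Ulk1, the initiating kinase, stood at 141, 166, 243 and 198 normalized counts in the 4 control mice and at 252, 264, 418 and 292 at 24 h. Every treated mouse was above every control, and the mean rose 1.63-fold (log2 fold change 0.71, SE 0.21, adjusted p = 0.0149). The increase at 12 h was similar in size (log2 fold change 0.61, SE 0.22, adjusted p = 0.0421), with values of 184, 376, 305 and 281 that overlapped the controls in mouse B19, and was lost in 6 of 8 fits that left out 1 mouse. At 3 h the mean was 282 ± 43.8 (SD, n = 4) against 187 ± 44.2 (SD, n = 4), which did not pass the test (adjusted p = 0.0985). The call at 24 h was lost without control mouse B2 (adjusted p = 0.0582) or treated mouse B27 (adjusted p = 0.0683). Becn1 of the PI3K complex was at 242, 264, 258 and 243 in controls, at 288, 275, 267 and 272 after 3 h and 202, 219.7, 234 and 223 after 24 h. All mice at 3 h were thus above and all at 24 h below the controls, by amounts that passed the test at neither time (0.11 and -0.20 on the log2 scale, adjusted p = 0.489 and 0.108).

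Atg7, the activating enzyme of conjugation, fell late. Its levels were 147, 165, 137 and 132 normalized counts in controls and 91.1, 85.4, 93.5 and 87.3 at 24 h, without overlap (log2 fold change -0.70, SE 0.13, adjusted p = 0.000208). Its mean was 145 ± 14.5 (SD, n = 4) in controls. The means of 139.5 ± 15.6 (SD, n = 4) after 3 h, 155 ± 7.71 (SD, n = 4) after 6 h and 117 ± 22.4 (SD, n = 4) after 12 h did not pass the test. Of the 10 members, this decrease had the lowest adjusted p of the time course, and it was called in all 8 fits that left out 1 mouse.

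None of the 3 ATG8 members was called at any time in WT mice. Map1lc3a, the most abundant, was at 1203, 1267, 1308 and 1381 in controls and 1075, 1393, 1363 and 1202 at 24 h, with a 95% interval of the log2 difference of -0.27 to 0.19. Map1lc3b had log2 fold changes between 0.23 at 24 h and 0.34 at 3 h, with adjusted p of 0.0956 to 0.222 over the 4 times. Without mouse B27 its 24 h value was 0.08, and without mouse B23 it was called at 12 h (0.41, adjusted p = 0.0422). Gabarapl1 stood at 712, 658, 791 and 667 normalized counts without TH. The mice had 1015, 1028, 1107 and 1361 after 3 h, 1331, 736, 1182 and 1072 after 6 h and 741, 799.7, 1796 and 859.9 after 24 h. All 4 mice at 3 h were above all controls, yet the test was missed at 3 h (adjusted p = 0.0645), at 6 h (0.0536) and at 24 h (0.0514). DESeq2 called it at these 3 times (adjusted p = 0.0363, 0.0331 and 0.0342). At 24 h the difference rested on mouse B27, without which it was 0.18 on the log2 scale against 0.57 with it. Sqstm1, the p62 receptor, was at 690.4 ± 93.1 (SD, n = 4) in controls and 579.5 ± 58.6 (SD, n = 4) at 24 h (log2 fold change -0.26, SE 0.13, adjusted p = 0.143).

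Bnip3, the mitophagy receptor, had the largest decrease of the set. Control mice were at 758, 695, 984 and 691 normalized counts and those taken 24 h after TH at 257, 225, 646 and 334, so that all treated mice were below all controls (log2 fold change -1.09, SE 0.24, adjusted p = 0.00164). Mouse B27, at 646, was closest to the controls, and without it the log2 fold change was -1.52. At 3, 6 and 12 h the means were 975 ± 158 (SD, n = 4), 773 ± 182 (SD, n = 4) and 608 ± 87.2 (SD, n = 4), against 782 ± 138 (SD, n = 4) in controls, and none passed the test, although all 4 mice at 12 h were below all controls. Pink1 stayed between 574.5 and 830.6 in all 20 mice, with log2 fold changes from -0.14 to 0.10 and no call. Mouse B27, which was the highest of its group for 7 members (Ulk1, Becn1, Atg7, Map1lc3b, Gabarapl1, Sqstm1 and Bnip3), also had the highest sum of brown adipocyte markers of its group, 228200 normalized counts. Without mouse B27, Atg7 (-0.72, adjusted p = 0.000545), Bnip3 (-1.52, adjusted p = 4.39e-06) and Tfeb (0.97, adjusted p = 0.00631) were still called at 24 h and Ulk1 was not.

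Tfeb rose at 3 of the 4 times. Controls were at 33.1, 23.9, 34.9 and 24.2 normalized counts. The levels were 54.6, 50.1, 71.8 and 36.4 after 3 h and 33.6, 25.4, 49.9 and 50.04 after 6 h of TH, then 35.9, 47.5, 54.8 and 49.7 after 12 h and 49.9, 57.8, 58.4 and 63.9 after 24 h. Treated and control mice overlapped only at 6 h, which is also the time without a call (adjusted p = 0.185). The log2 fold changes were 0.83 (SE 0.23, adjusted p = 0.0270) at 3 h, 0.68 (SE 0.24, adjusted p = 0.0400) at 12 h and 0.97 (SE 0.23, adjusted p = 0.00272) at 24 h. The call at 24 h held without any of the 8 mice, whereas that at 3 h was lost in 4 of 8 such fits and that at 12 h in 6 of 8. Tfeb is the least abundant member, so its values rest on few counts. No difference between times was tested.

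**Figure D1:**
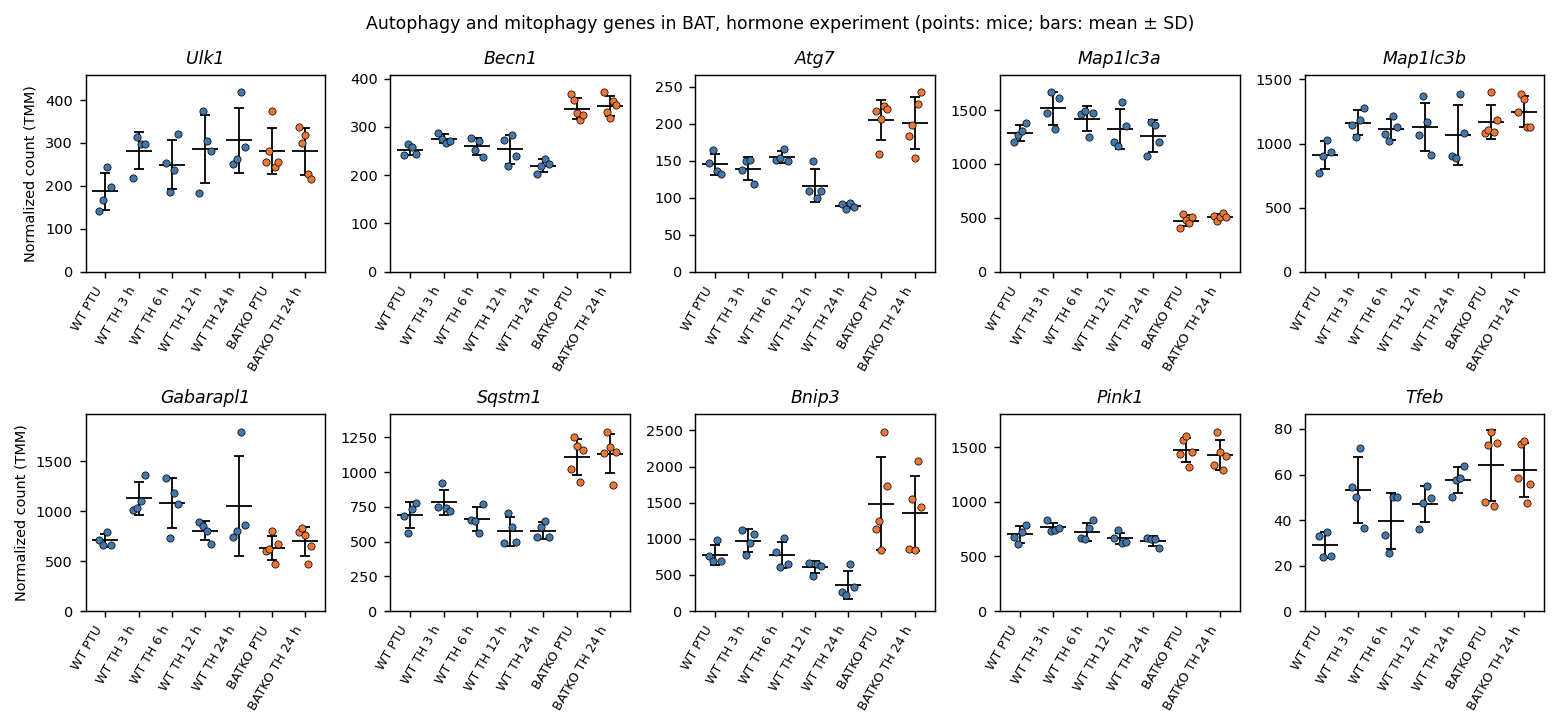
Normalized counts (TMM, vertical axes from 0) of the 10 genes in each mouse of the hormone experiment, with WT groups in blue and BATKO groups in orange. Points are mice and bars the mean ± SD. Atg7 and Bnip3 fell and Tfeb and Ulk1 rose at 24 h in WT mice, and no gene was called after TH in BATKO mice.

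Muscle markers summed to 819 to 8353 normalized counts in control mice and 3462 to 14840 at 24 h, with 54.1 to 3077 after 3 h and 57.1 to 3879 after 12 h. Brown adipocyte markers summed to 121200 to 144700 in controls and 126800 to 228200 at 24 h. The brown adipocyte sum follows its most abundant genes: of the 8 markers, 1 was higher and 4 were lower at 24 h, with a median log2 fold change of -0.55. The brown adipocyte sums were 156600 to 217900 after 3 h, 183600 to 210400 after 6 h and 157300 to 251100 after 12 h, above all controls, with 3 markers higher after 3 h and 2 higher and 3 lower after 12 h. Endothelial markers summed to 3062 to 3901 after 12 h, below the 4151 to 4481 of controls, and Schwann cell markers to 722 to 850.2, below 869.5 to 990.2. After 3 h, 2 of 4 erythroid markers were higher, and mouse B11 had an erythroid sum of 16270 against 2340 to 3640 in controls. The part of the brown adipocyte, endothelial, Schwann cell and erythroid sums in the results was not tested. With the muscle sum as a covariate, an alternative added after these sums were seen, all 4 members called at 24 h were still called, and Tfeb was not at 3 h (0.86, adjusted p = 0.0560) or 12 h (0.72, adjusted p = 0.0797), although its log2 fold changes were not smaller. Ulk1 was not called at 12 h (0.50, adjusted p = 0.177), and Gabarapl1 was called at 3 h (0.81, adjusted p = 0.0468). The mitochondrial genome gave 51.7% ± 3.44 (SD, n = 4) of counts in controls and 45.9% ± 4.93 at 24 h.

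Around the members, 78 further genes of the pathway were taken from 9 lists, and 77 of them were tested (Tfec was too low). At 24 h, 12 were higher and 13 lower in WT mice, with a median log2 fold change of 0.00 against 0.01 over all genes tested, so that both counts were near the 17.2% and 15.5% of all genes called. At 3 h the counts were 6 and 1, with Tecpr1 (1.21) and Foxo1 (1.09 on the log2 scale) already higher, and without 1 mouse 2 (without B3) to 8 (without B4) of these genes were called in all. They were 12 and 5 at both 6 h and 12 h. Upstream, the 5 genes of the ULK complex included 3 called genes, all higher: Ulk1, its relative Ulk2 (log2 fold change 0.43, SE 0.11, adjusted p = 0.00376) and the scaffold Rb1cc1 (log2 fold change 0.44, SE 0.12, adjusted p = 0.00635). In the PI3K complex (1 of 8 higher, 1 lower), Uvrag, a Beclin 1 partner, rose from 121 to 179 normalized counts and Pik3c3, the lipid kinase itself, fell from 197 to 149. Of 7 genes of ATG9 and lipid transfer, 2 fell, Wipi2 (log2 fold change -0.85, SE 0.18, adjusted p = 0.00109) and Wdr45 (log2 fold change -0.56, SE 0.13, adjusted p = 0.00295), which bind the lipid made by that kinase. Conjugation had 1 gene higher and 3 lower of 10: the ATG8 protease Atg4d rose (log2 fold change 0.90, SE 0.23, adjusted p = 0.00427), while Atg7, Atg10 and Atg12 fell (-0.51 and -0.59 on the log2 scale for the last 2). None of the 5 ATG8 genes was called by edgeR, with 1 (Gabarapl1) at an unadjusted p under 0.05. DESeq2 called Gabarapl1 and neither Map1lc3a nor Map1lc3b.

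Of 8 cargo receptors, Wdfy3 alone passed the test at 24 h, from 464 to 590.2 normalized counts (log2 fold change 0.34, SE 0.11, adjusted p = 0.0176). Mitophagy genes went both ways (2 of 10 higher, 3 lower): the mitochondrial ubiquitin ligase Mul1 rose (log2 fold change 0.67, SE 0.13, adjusted p = 0.000382), as did the prohibitin Phb2 (0.59 on the log2 scale), while Bnip3 and its paralog Bnip3l (-0.50) were among those that fell. Among 26 genes of the lysosome and fusion, 3 were higher and 6 lower. Tecpr1, which tethers autophagosomes to lysosomes, had the largest increase, from 189 to 607 normalized counts (log2 fold change 1.68, SE 0.17, adjusted p = 1.81e-07), and the proton pump subunit Atp6v1h fell from 805 to 562. Transcriptional regulators had 3 calls among 8 genes tested, all higher: Tfeb, Foxo1 (log2 fold change 1.23, SE 0.25, adjusted p = 0.000675) and Trp53inp2 (log2 fold change 0.97, SE 0.14, adjusted p = 2.09e-05), a nuclear cofactor that moves to autophagosomes.

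BATKO mice were given TH to ask how the 24 h response differs with genotype. No member was called 24 h after TH in BATKO mice, and edgeR called none of the 14178 genes tested (0% higher and 0% lower), with 673 genes at an unadjusted p under 0.05 and no call by DESeq2. None of the 10 members had an unadjusted p under 0.05, and DESeq2 called none of them. Tfeb was at 48.05, 72.9, 78.8, 46.3 and 73.9 normalized counts on PTU and at 58.4, 73.5, 74.9, 47.7 and 55.8 after TH, which overlap throughout (log2 fold change -0.05, SE 0.19, adjusted p = 0.998, 95% interval -0.44 to 0.35). Atg7 was at 217, 159, 206, 224 and 219.9 and 184, 198, 154, 227 and 243, with a 95% interval of -0.27 to 0.21 for the log2 difference. The other intervals lay between -0.68 (Bnip3) and 0.54 (Gabarapl1).

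The difference between the BATKO and WT responses, tested as an interaction in a fit of all 30 mice, was significant for 2 members. For Tfeb it was -1.02 (SE 0.31, adjusted p = 0.0266) on the log2 scale, the response of BATKO mice minus that of WT mice, and for Atg7 it was 0.67 (SE 0.18, adjusted p = 0.0149). In that comparison 5.12% of genes were higher and 7.15% lower. Tfeb kept the call in 13 of 18 fits that left out 1 mouse and Atg7 in 17 of 18. Without control mouse B3, neither was called (adjusted p = 0.0660 and 0.0522). The difference was 0.96 (SE 0.40, adjusted p = 0.118) for Bnip3 and -0.72 (SE 0.28, adjusted p = 0.0887) for Ulk1, which did not pass the test. Bnip3 passed without mouse B27 (1.38, adjusted p = 0.0190) or BATKO mouse 11 on PTU (1.22, adjusted p = 0.0305), and Ulk1 without control mouse B4 (-0.88, adjusted p = 0.0424). Of the 8 brown adipocyte markers, 3 were higher in this comparison, with a median of 0.50, and their part in the results was not tested. Of the other listed genes tested, 2 were higher and 7 lower. The lower ones were Tecpr1 (-1.41, adjusted p = 4.72e-05), Foxo1 (-1.09), Atg4d (-1.04), Trp53inp2 (-1.01), Mul1 (-0.72), Phb2 (-0.49) and Ulk2 (-0.43), and the higher ones were Wdr45 (0.60) and Bnip3l (0.56).

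The starting levels of both genotypes differed. On PTU alone, a comparison added after the levels were seen, 8 members were higher and 1 lower in BATKO than in WT mice, beside 36.4% of all genes higher and 33.9% lower. Map1lc3a was at 406, 537, 476, 449 and 505 normalized counts in BATKO mice and 1203, 1267, 1308 and 1381 in WT mice, far apart (log2 fold change -1.44, SE 0.10, adjusted p = 1.78e-13). Pink1 showed the reverse, with 1437, 1561, 1599, 1316 and 1457 against 680, 611, 727 and 788 (log2 fold change 1.07, SE 0.10, adjusted p = 3.18e-11). Tfeb (1.12), Bnip3 (0.93), Sqstm1 (0.68), Ulk1 (0.59), Atg7 (0.50), Becn1 (0.42) and Map1lc3b (0.36) were higher on the log2 scale. Without WT mouse B2 the calls of Ulk1 (adjusted p = 0.0571) and Map1lc3b (0.0694) were lost. Gabarapl1 was not called (log2 fold change -0.15, SE 0.21, adjusted p = 0.512). Of the 77 other listed genes tested, 21 were higher and 38 lower. The interactions above therefore start from unequal levels: Tfeb in BATKO mice on PTU was at 63.99 ± 15.5 (SD, n = 5), and in WT mice 24 h after TH at 57.5 ± 5.76 (SD, n = 4). Brown adipocyte markers summed to 43500 to 53260 in BATKO and 121200 to 144700 in WT mice, with 7 of 8 markers lower. Endothelial markers summed to 5257 to 6062 and 4151 to 4481 (4 of 5 higher), erythroid markers to 2686 to 7383 and 2340 to 3640 (3 of 4 higher, 1 lower) and Schwann cell markers to 494 to 1250 and 869.5 to 990.2 (2 of 3 lower). Total counts per library were also higher in BATKO mice, and no label tells whether both genotypes were processed together. Genotype and a difference between these sets of libraries cannot be told apart. In the temperature and diet experiments, given next, no member passed the test between genotypes.

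**Figure D2:**
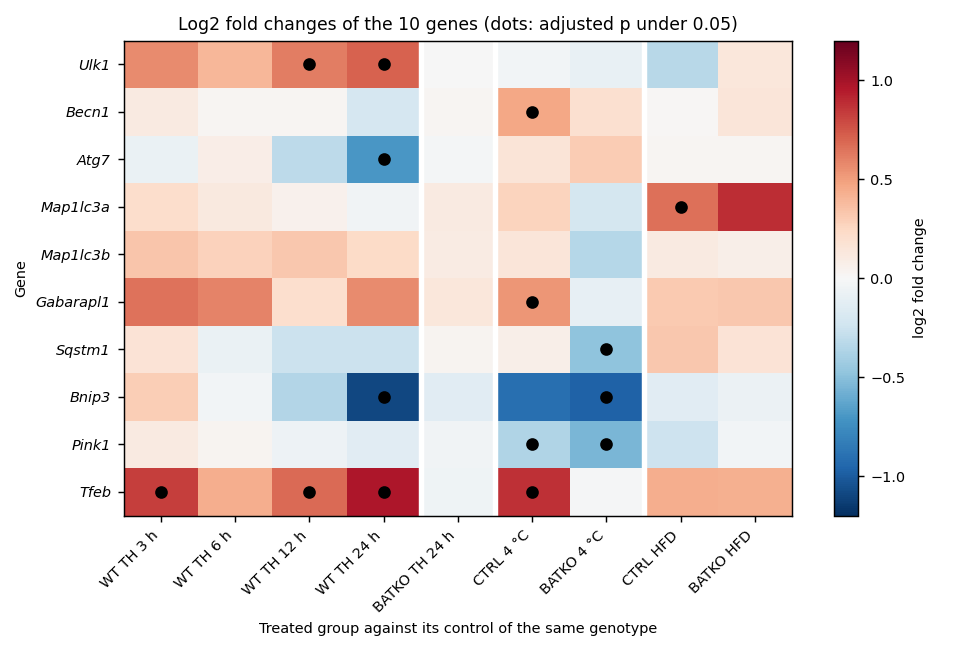
Log2 fold changes (color) of the 10 genes (rows) in 9 comparisons of a treated group with the control of its genotype (columns), with a dot where edgeR's adjusted p was under 0.05. Tfeb has 4 dots, Bnip3, Pink1 and Ulk1 have 2 each, and Map1lc3b has none.

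The cold exposure compared 4 °C with 30 °C. In CTRL mice Tfeb, Becn1 and Gabarapl1 were higher and Pink1 lower in the cold, and in BATKO mice Pink1, Bnip3 and Sqstm1 were lower. Of the 13267 genes tested, 26.5% were higher and 22.6% lower in CTRL mice, beside 3 and 1 of the 10 members. In BATKO mice 21.4% were higher and 18.9% lower, beside 0 and 3 members.

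At the start of the pathway, Becn1 was at 486, 419 and 424 normalized counts in the cold and 309, 325, 333 and 317 at 30 °C in CTRL mice, without overlap (log2 fold change 0.46, SE 0.13, adjusted p = 0.00734), a call lost without cold mouse 1 (adjusted p = 0.0630). In BATKO mice it was at 452, 354, 348 and 406 and 305, 359.9, 350, 289 and 399.7, which overlap (log2 fold change 0.20, SE 0.11, adjusted p = 0.188). Ulk1 was not called, at 197 ± 38.4 (SD, n = 3) in the cold and 202 ± 39.05 (SD, n = 4) at 30 °C in CTRL mice (95% interval of the log2 difference -0.51 to 0.45). Atg7, lower after TH, was at 107 ± 28.96 (SD, n = 3) and 95.5 ± 14.1 (SD, n = 4) in CTRL mice and was called in neither genotype.

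Of the ATG8 members, Gabarapl1 was at 763, 1740 and 1170 in the cold and 761, 869, 868 and 895 at 30 °C in CTRL mice (log2 fold change 0.53, SE 0.20, adjusted p = 0.0413). The call was lost in 6 of 7 fits that left out 1 mouse, most clearly without mouse 2, at 1740, where the log2 fold change was 0.19 (adjusted p = 0.422). It was also lost in a fit of CTRL mice alone (adjusted p = 0.0990) and without the count filter (0.0509). Map1lc3a (0.27 in CTRL, -0.21 in BATKO) and Map1lc3b (0.15 and -0.34 on the log2 scale) were not called by edgeR in either genotype. DESeq2 called Map1lc3b in BATKO mice (-0.35, adjusted p = 0.0316, against 0.0590 by edgeR), as did edgeR without mouse 12 (adjusted p = 0.0396) or 15 (0.0362). The CTRL value of Map1lc3a ran from 0.07 without cold mouse 1 to 0.43 without cold mouse 5, where it was called (adjusted p = 0.0471). Sqstm1 was at 790.2, 863, 896 and 882 in the cold and 1009, 1264, 1065, 1040 and 1613 at 30 °C in BATKO mice, without overlap (log2 fold change -0.48, SE 0.13, adjusted p = 0.00888). In CTRL mice the same gene was at 999 ± 119 (SD, n = 3) and 952 ± 39.6 (SD, n = 4) (adjusted p = 0.723).

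Both mitophagy members had lower means in the cold. Pink1 was at 789.9, 863 and 684 at 4 °C and 1061, 955, 988 and 1009 at 30 °C in CTRL mice (log2 fold change -0.36, SE 0.12, adjusted p = 0.0191), and at 747, 679, 749.8 and 750.5 and 1280, 1102, 991, 972 and 1019 in BATKO mice (log2 fold change -0.55, SE 0.11, adjusted p = 0.000637). Cold and warm mice did not overlap in either genotype, and the CTRL call was lost without cold mouse 5 (adjusted p = 0.0692) and without the count filter (0.0785). Bnip3 was at 532, 635, 295 and 976 in the cold and 1149, 753, 1531, 1114 and 1411 at 30 °C in BATKO mice (log2 fold change -0.97, SE 0.34, adjusted p = 0.0318), with overlap, and the call was lost in 5 of 9 fits that left out 1 mouse. In CTRL mice it was at 256, 1007 and 617 and 1294, 1238, 1037 and 1126, a similar difference with a wide error that missed the threshold (log2 fold change -0.91, SE 0.39, adjusted p = 0.0628). CTRL mouse 2, highest for Gabarapl1, was also highest for Bnip3, and without it Bnip3 was called (log2 fold change -1.43, adjusted p = 0.0111). Without cold mouse 1, the lowest, the log2 fold change was -0.57 (adjusted p = 0.215). Bnip3 was also called with all mice by DESeq2 (adjusted p = 0.0272) and by edgeR without the count filter (0.0432).

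Tfeb was at 69.9, 69.5 and 28.01 in the cold and 32.98, 35.7, 29.8 and 22.2 at 30 °C in CTRL mice (log2 fold change 0.88, SE 0.29, adjusted p = 0.0196). Mice 1 and 2 were far above all warm mice, while mouse 5 was among them, and the call was lost without mouse 1 (adjusted p = 0.131) or mouse 2 (0.104) or warm mouse 22 (0.0578), and with a fit of CTRL mice alone (0.0601). BATKO mice had 51.5 ± 11.4 (SD, n = 4) in the cold and 51.8 ± 8.31 (SD, n = 5) at 30 °C.

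**Figure D3:**
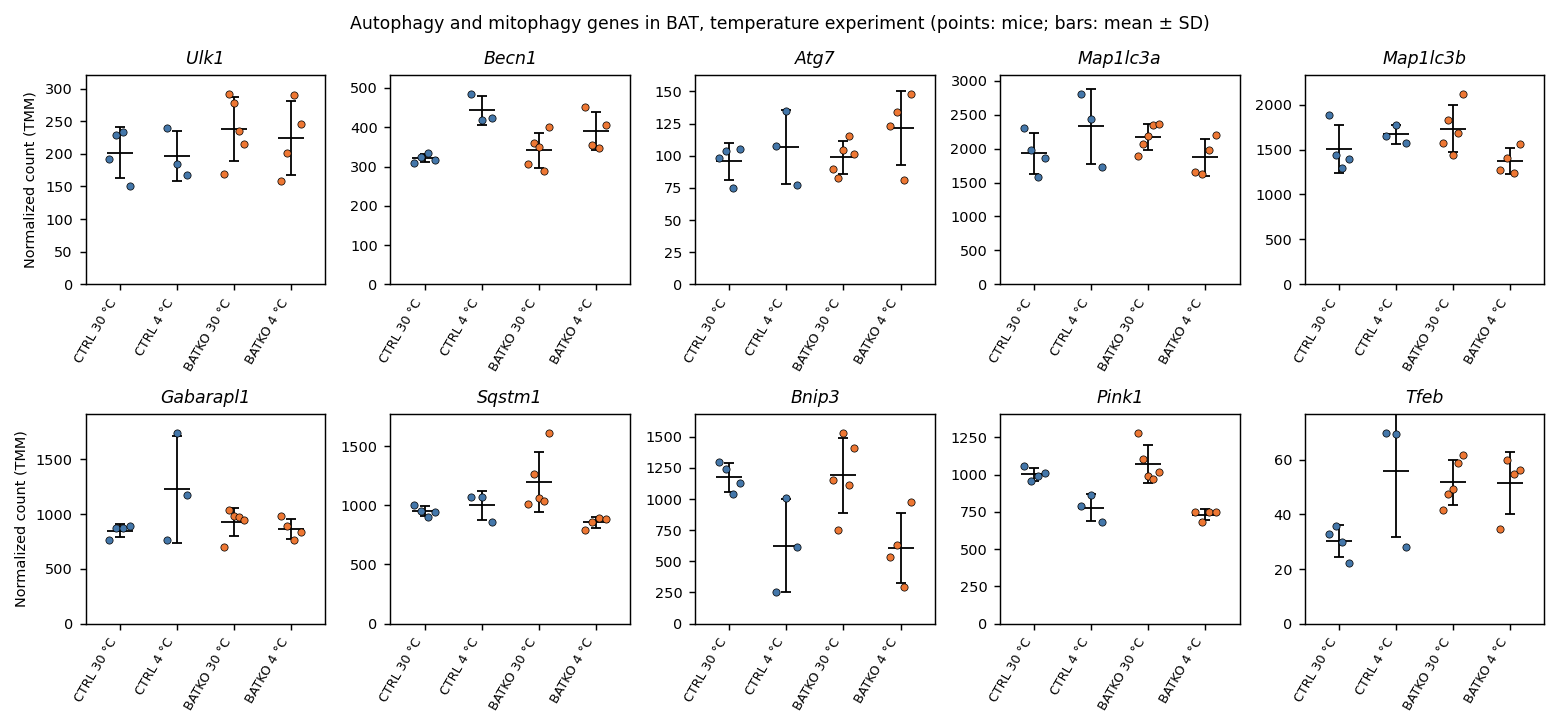
Normalized counts (TMM, vertical axes from 0) of the 10 genes in each CTRL (blue) and BATKO (orange) mouse at 30 °C or 4 °C. Points are mice and bars the mean ± SD. Pink1 was lower at 4 °C in both genotypes, with no overlap, and the 3 cold CTRL mice were spread widely for Gabarapl1, Bnip3 and Tfeb.

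Genotypes were compared at each temperature. At 4 °C, where 0.957% of genes were higher and 1.2% lower in BATKO mice, edgeR and DESeq2 called no member and 1 had an unadjusted p under 0.05 (Gabarapl1, adjusted p = 0.224). At 30 °C, with 0.00754% of genes higher and 0% lower, neither tool called a member and 2 had an unadjusted p under 0.05, Sqstm1 and Tfeb. Tfeb at 30 °C was higher in all 5 BATKO than in all 4 CTRL mice (log2 fold change 0.77, SE 0.26, adjusted p = 0.542). The difference of the cold responses was significant for 0.317% of genes in the higher and 0.807% in the lower direction and, by either tool, for no member. Unadjusted, 4 members passed 0.05, with log2 differences of -0.55 for Sqstm1, -0.49 for Map1lc3b, -0.89 for Tfeb, -0.63 for Gabarapl1 and adjusted p from 0.149 to 0.227. Without cold CTRL mouse 2 the difference for Gabarapl1 was -0.30, adjusted p = 0.559, and without cold CTRL mouse 5 that for Tfeb passed the test (-1.21, adjusted p = 0.0378). With all mice, a call in 1 genotype alone is therefore not shown to differ between genotypes.

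Marker sums also moved with the cold. In CTRL mice brown adipocyte markers summed to 198300 to 236700 at 4 °C and 26340 to 44190 at 30 °C, erythroid markers to 8221 to 18340 and 1900 to 3565, and muscle markers to 1739 to 6884 and 35.6 to 49910 normalized counts. In BATKO mice the brown adipocyte sums were 115200 to 198100 and 29730 to 42300, the erythroid sums 8270 to 11910 and 1938 to 5305, and the muscle sums 66.5 to 18220 and 64.3 to 88120. Endothelial sums in BATKO mice were 4769 to 6393 at 4 °C and 6034 to 8400 at 30 °C, with 2 of 5 markers lower. In CTRL mice 1 endothelial marker was higher and 1 lower. Macrophage sums in CTRL mice were 502 to 638 at 4 °C and 660.2 to 1091 at 30 °C and lymphocyte sums 19.6 to 50.2 and 61.3 to 86.8, lower in the cold without overlap, whereas in BATKO mice both overlapped. The part of the brown adipocyte, erythroid, endothelial, macrophage and lymphocyte sums in the results was not tested. With the 4 warm libraries of high muscle sum left out, an alternative added after the sums were seen, the log2 fold changes of the 4 CTRL and 3 BATKO members called above kept their direction, and Becn1 was the only CTRL member still called (0.50, adjusted p = 0.0380). The others were Pink1 (-0.41, adjusted p = 0.0539), Tfeb (1.00, adjusted p = 0.0596) and Gabarapl1 (0.56, adjusted p = 0.0988). In BATKO mice Pink1 and Sqstm1 were still called and Bnip3 was not (-0.89, adjusted p = 0.112). That fit has 2 warm CTRL and 3 warm BATKO mice. With the muscle sum as a covariate and all mice, the 4 calls in CTRL and the 3 in BATKO mice were all kept, with adjusted p of 0.0112 to 0.0424 and 0.00124 to 0.0230.

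Among the 77 other listed genes tested, 33 were higher and 8 lower in the cold in CTRL mice and 27 and 7 in BATKO mice, with medians of 0.30 and 0.20 on the log2 scale against -0.01 and -0.02 over all genes. Of all genes tested, 26.5% were higher and 22.6% lower in CTRL mice and 21.4% and 18.9% in BATKO mice. Genes with a mean normalized count above 50 leaned upward in CTRL mice, with 3034 higher, 2157 lower and a median of 0.09. In BATKO mice these values were 2483, 1822 and 0.03. Of the lysosome list, the largest of the 9, 14 of 26 genes were higher and 2 lower in CTRL mice. Lamp1, a main protein of the lysosomal membrane, rose from 2098 to 6299 normalized counts (log2 fold change 1.59, SE 0.16, adjusted p = 8.94e-07), and the protease Ctsd from 1769 to 4919 (log2 fold change 1.48, SE 0.20, adjusted p = 1.53e-05). In BATKO mice both rose too, by 1.04 and 0.75 on the log2 scale. Conjugation had 4 of 10 genes higher and none lower. Atg4d rose from 86.8 to 730.2 (log2 fold change 3.07, SE 0.29, adjusted p = 4.96e-07) and the related protease Atg4b from 161 to 246 normalized counts. In the ATG8 family Gabarap joined Gabarapl1, from 2800 to 4647 (log2 fold change 0.73, SE 0.16, adjusted p = 0.00147). Wipi2, lower after TH in WT mice, was higher in the cold (log2 fold change 1.28, SE 0.27, adjusted p = 0.00102), as was the lipid carrier Atg2a (0.84 on the log2 scale), in a list with 2 of 7 higher and 1 lower.

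Of 8 cargo receptors, 3 were higher and 2 lower in cold CTRL mice. Retreg1, the receptor for autophagy of the endoplasmic reticulum, had the largest decrease of all listed genes named here, from 549 to 84.95 normalized counts (log2 fold change -2.69, SE 0.33, adjusted p = 6.53e-06), and Tax1bp1 rose (log2 fold change 0.87, SE 0.12, adjusted p = 2.72e-05). Mitophagy genes again went both ways, 5 of 10 higher and 2 lower. Phb2 rose from 917 to 2407 (log2 fold change 1.39, SE 0.15, adjusted p = 1.96e-06), whereas Pink1 was among those that fell. Among regulators (3 of 8 higher, 1 lower), Trp53inp2 rose (log2 fold change 1.65, SE 0.18, adjusted p = 2.69e-06) and Foxo3 fell (log2 fold change -1.03, SE 0.18, adjusted p = 0.000186). In the ULK complex Atg13 alone was called (log2 fold change 0.84, SE 0.15, adjusted p = 0.000182), and in the PI3K complex Ambra1 (0.58) rose with Becn1 while Pik3r4 (-0.47 on the log2 scale) fell. In the difference between the cold responses of both genotypes, 0.317% of all genes were higher and 0.807% lower. Of the other listed genes, 1 differed, Tecpr1 (1.47 in CTRL and 0.55 in BATKO mice on the log2 scale, a difference of -0.91, adjusted p = 0.0448). This number was 0 in most fits that left out 1 mouse and 9 without cold CTRL mouse 5.

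**Figure D4:**
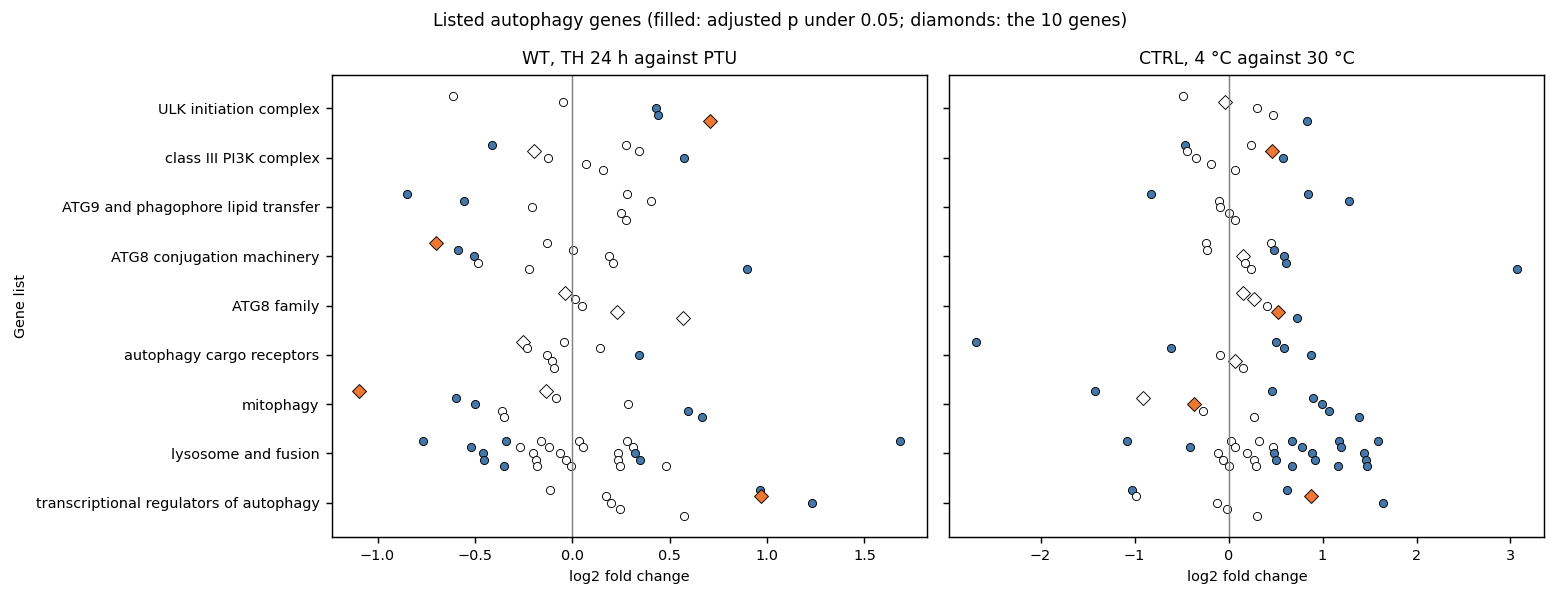
Log2 fold changes (horizontal axes, on scales of their own) of the listed autophagy genes by list, in WT mice 24 h after TH (left) and in CTRL mice at 4 °C against 30 °C (right). Filled symbols passed the test, and diamonds are the 10 genes. Called genes lie on both sides of 0 after TH (12 higher and 13 lower without the 10 genes) and mostly above 0 in the cold (33 and 8). Of all genes tested, 17.2% were higher and 15.5% lower after TH, and 26.5% and 22.6% in the cold.

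The diet experiment compared HFD with chow. Map1lc3a was the only member that edgeR called, with 1495, 2255, 1589 and 1981 normalized counts on HFD and 960, 967, 1458 and 1236 on chow in CTRL mice. The groups did not overlap, and the mean was 1.58-fold higher (log2 fold change 0.66, SE 0.17, adjusted p = 0.0418). In BATKO mice Map1lc3a was at 1656, 1946 and 2223 on HFD and 909 and 1197 on chow, also without overlap, and this larger difference missed the threshold with 2 mice on chow (log2 fold change 0.88, SE 0.22, adjusted p = 0.118). Sqstm1, Ulk1, Tfeb and Becn1 were far from passing the test in BATKO mice (adjusted p = 0.743, 0.748, 0.520 and 0.590). Their 3 HFD mice were above both chow mice, which so few mice easily reach by chance. The share of all genes that separate in this way was not counted. DESeq2 called Map1lc3a in BATKO mice (adjusted p = 0.0110). The difference between both responses was 0.22 (SE 0.28, adjusted p = 0.973), with a 95% interval of -0.37 to 0.81.

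In CTRL mice 1.89% of the 12932 genes tested were higher and 2.04% lower on HFD, and in BATKO mice 0.0309% and 0.0387%. Unadjusted, 2 members passed 0.05 in CTRL mice, the second being Ulk1 at 112, 154, 107 and 104 on HFD and 153, 142, 172 and 134 on chow (log2 fold change -0.33, SE 0.14, adjusted p = 0.179), and 1 in BATKO mice. Tfeb was at 31.4 ± 5.11 (SD, n = 4) and 23.1 ± 5.65 (SD, n = 4) in CTRL mice (log2 fold change 0.43, SE 0.22, adjusted p = 0.265). CTRL mouse 9 on HFD was the highest of its group for Map1lc3a, Map1lc3b, Sqstm1, Ulk1, Gabarapl1, Bnip3 and Pink1, and without it Map1lc3a was not called (adjusted p = 0.103). The call was lost in 6 of 8 fits that left out 1 mouse and in a fit of CTRL mice alone (adjusted p = 0.0751). Without mouse 9, Ulk1 was called lower (-0.49, adjusted p = 0.0490). Muscle markers summed to 42.9 to 4803 on HFD and 99.95 to 18980 on chow, macrophage markers to 722 to 1983 and 498 to 598, and brown adipocyte markers to 43570 to 53870 and 30240 to 46310 in CTRL mice. The part of the macrophage and brown adipocyte sums was not tested. With the muscle sum as a covariate, Map1lc3a differed by 0.83 on the log2 scale (adjusted p = 0.00794).

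Genotypes were compared on each diet. EdgeR called no gene on HFD (0% higher and 0% lower), on chow (0% and 0%) or for the difference of the diet responses (0% and 0%), with 691, 1024 and 740 genes at an unadjusted p under 0.05 and 9, 33 and 0 calls by DESeq2. Neither tool called a member in these 3 comparisons, and the only member with an unadjusted p under 0.05 was on chow. There Ulk1 was at 105 and 106 in the 2 BATKO mice, below all 4 CTRL mice (log2 fold change -0.50, SE 0.17, adjusted p = 0.448). These 2 mice had macrophage sums of 1272 to 1581, against 498 to 598 in CTRL mice on chow and 541 to 1148 in BATKO mice on HFD, and lymphocyte sums of 89.4 to 137, against 34.5 to 62.4 and 32.1 to 85.3. The part of this in the comparisons with BATKO mice on chow was not tested.

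**Figure D5:**
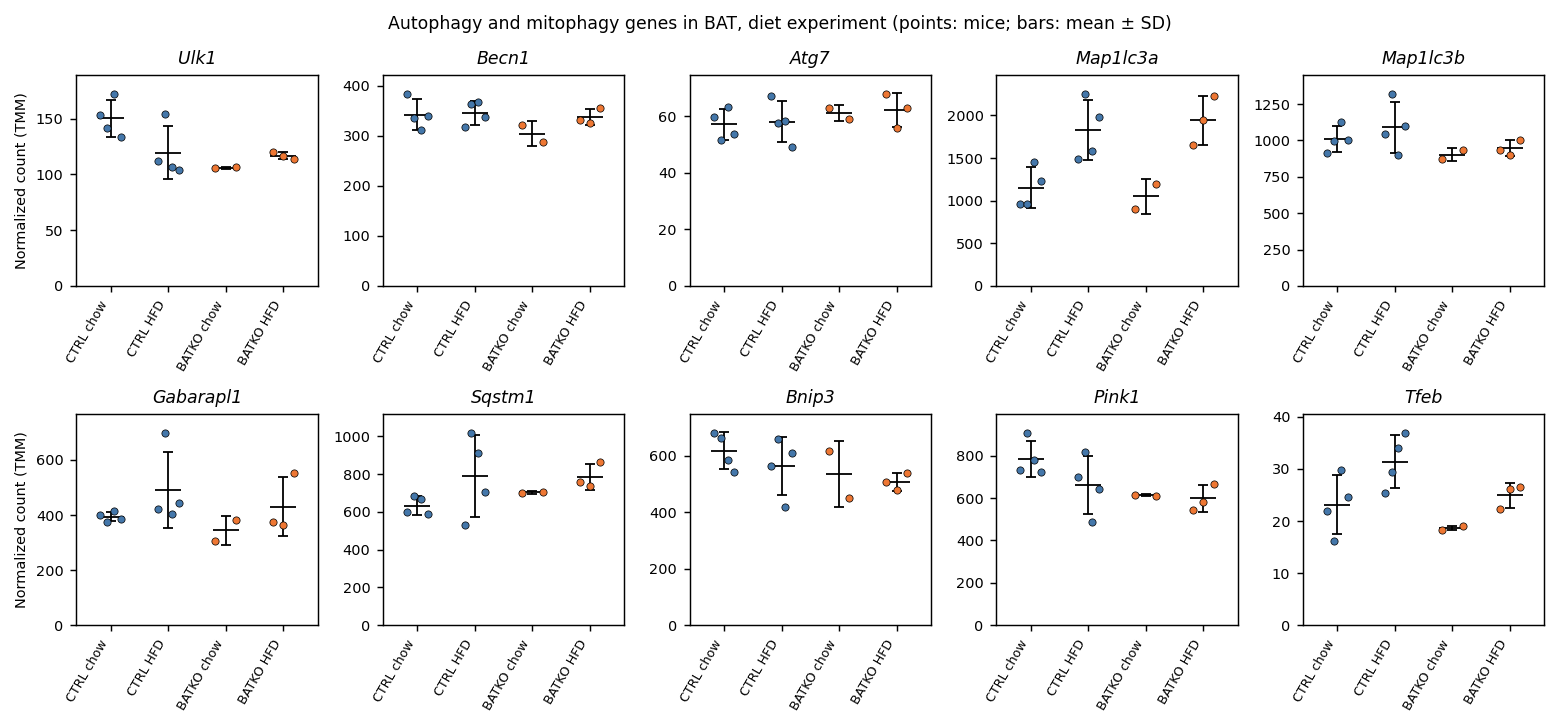
Normalized counts (TMM, vertical axes from 0) of the 10 genes in each CTRL (blue) and BATKO (orange) mouse on chow or HFD. Points are mice and bars the mean ± SD. Map1lc3a was higher on HFD than on chow in both genotypes without overlap, and the other genes overlapped between the diets in CTRL mice.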

How the data were processed

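RNA of brown adipose tissue had been extracted with Trizol, made into libraries with the Lexogen SENSE total RNA kit and sequenced on a Nextseq 500, per the labels. The values deposited by the authors are counts: whole reads per gene, which the authors obtained with Bowtie on GRCm38 (the submitters' processing notes name Bowtie2 2.3.2.2 and DESeq2), removal of low-quality alignments and htseq-count. The annotation and strand setting were not given in the sources used here. Each column was matched to 1 mouse, in 15 groups of 2 to 5 mice.

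Counts were tested with edgeR 4.0.16 (R 4.3.3): TMM normalization and the 2-sided quasi-likelihood test in each fit on genes whose normalized counts averaged over 10, and Benjamini-Hochberg adjusted p under 0.05 over all genes tested, with no fold threshold. A call is a gene past that threshold. The 20 WT mice, the 30 mice of the hormone experiment, the 16 of the temperature experiment and the 13 of the diet experiment were fitted together, 1 coefficient per group. The standard error is the log2 fold change divided by the root of F, and 95% intervals use the t distribution with the fit's degrees of freedom. Alternatives were DESeq2 1.42.0, RLE factors, other filters, totals without mitochondrial genes, other sets of mice, each mouse left out, and, added after values were seen, the muscle sum as a covariate, libraries of high muscle sum left out, and the comparison of genotypes on PTU. The edgeR fit of the 20 WT mice was checked on simulated counts with changes planted at 24 h.

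The 10 members and the lists (ULK complex, class III PI3K complex, ATG9 and lipid transfer, ATG8 conjugation, ATG8 family, cargo receptors, mitophagy, lysosome and fusion, transcriptional regulators, and markers of brown adipocytes, skeletal muscle, macrophages, endothelial cells, lymphocytes, erythroid and Schwann cells) were chosen with earlier results of these data known. Besides the members, the text names from each pathway list the 2 called genes of largest absolute log2 fold change, with a mean normalized count above 50, in WT mice at 24 h and in CTRL mice in the cold. Atg10 and Bnip3l were named after their values were seen. A gene of the lists that this rule selects is not reported here. Positions and overlaps come from GENCODE M21, promoters from RefSeq (GRCm38.p6). Mice are separate samples, so p-values measure the spread between mice, and depth limits the precision of low genes such as Tfeb.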

Additional observations from a re-analysis of the deposited data

Results flagged for a closer look

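In groups of 4 or 5 mice, a mouse was marked where its gap to the nearest other mouse exceeded Dixon's critical value, which chance does in about 1 in 20 groups. This held for 15 of 166 gene and group pairs tested, of which 11 of 120 were members. In WT mice, Map1lc3a was low in mouse B15 at 6 h, at 1248 normalized counts against 1461 to 1494 in the other mice of the group. Sqstm1 was high in mouse B8 at 3 h (919 against 722 to 747), Ulk1 low in mouse B7 at 3 h (217.5 against 298 to 315) and Pink1 low in mouse B28 at 24 h (574.5 against 655 to 670.2). Mouse B27 at 24 h stood out for Gabarapl1 (1796 against 741 to 859.9) and for the proton pump subunit Atp6v1h (745 against 477 to 522), and Wdr45 was low in control mouse B2 (202 against 218 to 221).

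In BATKO mice on PTU, Ulk1 was high in mouse 4 (375 against 244 to 280.2) and Atg7 low in mouse 3 (159 against 206 to 224). Gabarapl1 was low in BATKO mouse 13 at 30 °C (698 against 949.5 to 1035), which was among the libraries of high muscle sum, and Pink1 was low in BATKO mouse 8 at 4 °C (679 against 747 to 750.5). CTRL mouse 9 on HFD was high for Ulk1 (154 against 104 to 112) and Gabarapl1 (697 against 404.5 to 442). CTRL mouse 22 at 30 °C was high for Wipi2 (528 against 274 to 309) and Tax1bp1 (1034 against 833 to 837).

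The 24 h hormone response differed between BATKO and WT mice, by the interaction test of edgeR, for Tfeb (-1.02, adjusted p = 0.0266), Atg7 (0.67, 0.0149), Ulk2 (-0.43, 0.0412), Wdr45 (0.60, 0.0141), Atg4d (-1.04, 0.0151), Phb2 (-0.49, 0.0241), Mul1 (-0.725, 0.00732), Foxo1 (-1.09, 0.0225), Trp53inp2 (-1.01, 0.00719), Bnip3l (0.56, 0.0162) and Tecpr1 (-1.41, 4.72e-05 on the log2 scale). The cold response differed between BATKO and CTRL mice for Tecpr1 (-0.91, adjusted p = 0.0448). Becn1 in WT mice was above every control in all mice at 3 h (log2 fold change 0.11) and below every control in all mice at 24 h (-0.20), and the difference between these times was not tested.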

How the results depend on the processing

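Of 2806 values of the 10 members under the alternatives, 2708 kept their direction and their side of the threshold, 61 lost a call, 37 gained one and 0 calls turned direction, and 64 of the changes came from leaving out 1 mouse. For the other listed genes only the number called was followed, not the value of each gene. Of 2341 values without a call, 134 turned sign. The number of the 10 members called moved as follows. At 3 h in WT mice it was 1, and 2 with DESeq2, 3 without a filter, 0 with a mean above 50, 2 with only the groups compared and 0 to 2 without 1 mouse. At 6 h it was 0, and 1 with DESeq2, without a filter, with a mean above 50, with only the groups compared and with all 30 mice, and 0 to 1 without 1 mouse. At 12 h it was 2, and 1 without a filter or with a mean above 50, 0 with the muscle covariate and 0 to 2 without 1 mouse. Tfeb averaged 43.01 normalized counts in these mice, so a mean above 50 leaves it out before testing, which accounts for its missing call at 3 and 12 h. Without 1 mouse it was 3 to 5 at 24 h (4 with all mice), 0 to 0 in BATKO mice at 24 h, 0 to 3 for the difference of responses and 7 to 9 for genotype on PTU. In the cold it was 4 in CTRL mice, and 1 without libraries of high muscle sum, 2 with only the groups compared and 2 to 3 without 1 mouse. In BATKO mice in the cold it was 2 to 4 without 1 mouse, and for the difference of cold responses 0 to 1. On HFD it was 1 in CTRL mice, and 0 with only the groups compared and 0 to 1 without 1 mouse. In BATKO mice on HFD it was 0, and 1 with DESeq2 or without a filter.

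The number of all genes called at 3 h was 1195, and 684 to 1311 without 1 mouse, and in BATKO mice at 24 h 0 to 1. For genotype at 4 °C it was 286, and 649 with DESeq2, 61 with only the groups compared and 53 to 565 without 1 mouse, and at 30 °C 1, with 8 by DESeq2 and 0 without libraries of high muscle sum. For the difference of cold responses it was 149, and 652 with DESeq2, 4 without libraries of high muscle sum and 5 to 907 without 1 mouse. On HFD in CTRL mice it was 509, and 873 with DESeq2, 1280 without a filter, 321 with only the groups compared and 166 to 716 without 1 mouse. On HFD in BATKO mice it was 9, and 226 with DESeq2, 336 without a filter, 31 with the muscle covariate, 66 with only the groups compared and 0 to 9 without 1 mouse. For genotype on HFD it was 0, and 9 with DESeq2, 59 without a filter and 0 to 10 without 1 mouse, on chow 0, and 33 with DESeq2, 290 without a filter and 114 with only the groups compared, and for the difference of diet responses 0, and 216 without a filter. The causes of the other changes were not tested. For the differences of the cold and diet responses, the groups compared are all groups of the experiment, so that alternative gave no other value. No paired analysis was possible because the groups compared share fewer than 2 mouse numbers. Tfeb was the member of fewest counts, as few as 16 in a mouse.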
